A study of Homo sapiens with 13 samples.

Results

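The genes described here were 9 genes of the actin cytoskeleton, taken by symbol from the 24,875 symbols of the Silvestrol table and the 13,121 symbols of the INK128 table. They were the actins ACTB and ACTG1, the monomer-binding and filament-severing genes PFN1, PFN2 and CFL1, the crosslinker FLNA, the scaffold IQGAP1, the myosin light chain kinase MYLK and the focal adhesion gene TES. All 9 were found in both tables. All 9 passed the minimum for expression in the Silvestrol table, together with 10,526 genes in all, and 8 passed in the INK128 table, together with 7,102 genes. PFN2 did not pass there. The 9 genes were chosen by their footprints in untreated, DMSO and drug libraries, their mRNA, their translational efficiency (TE) and their counted length in these same libraries, so these values are given as a description and carry no p-values.

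The cells were MDA-MB-231, a human breast cancer line of basal, mesenchymal type grown in RPMI with fetal calf serum, so 1 cell line stands behind every value. Ribosome footprints (RFs), the fragments of mRNA protected by ribosomes, were sequenced from cells left untreated and from cells treated for 1 h or 2 h, either with DMSO alone or with Silvestrol at 25 nM. Silvestrol inhibits the helicase eIF4A. The 2 h treatments were done at passage 3 and again at passage 4, and every other library came from passage 3. mRNA was sequenced at 2 h in 1 DMSO and 1 Silvestrol library. In a separate experiment 4 libraries measured RFs and total RNA after 2 h of DMSO or 200 nM INK128, an inhibitor of the mTOR kinase, with 1 library per group. Treated cells received the vehicle or the drug in fresh medium, whereas untreated cells had neither. In the labels, the Silvestrol RF library titled 2 h at passage 3 also carries a treatment of 1 h, and the control mRNA library titled DMSO also carries the word untreated. The titles were followed.

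Actin monomers polymerize into filaments that give a cell its shape and drive its movement, and the balance between monomer and filament is set by binding proteins. Profilins deliver monomers to growing filament ends, cofilins sever and depolymerize old filaments, and filamins tie filaments into networks. IQGAP1 links filaments to small GTPase signaling, myosin light chain kinase starts contraction by phosphorylating myosin, and testin sits at focal adhesions. The non-muscle actins ACTB and ACTG1 are among the most abundant proteins of most cells, and both they and their partners PFN1 and CFL1 have many processed pseudogenes, intronless copies scattered over the genome.

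Counted reads per library ranged from 2,652,423 in Silvestrol RFs of passage 4 to 50,315,607 in control mRNA, with 6,446,356 in DMSO RFs of passage 4 and 12,010,405 to 31,188,148 in the 5 RF libraries of passage 3. The markers VIM, CD44, EGFR and AXL of the line were present, at 1461, 149.5, 32.2 and 303 mRNA RPKM (reads scaled by counted length and library size) in control cells, while SPARC was at 0.494. All values are shares of a library, so fewer cells and less RNA or fewer ribosomes per cell cannot be told apart. Of the markers this line is known to have at low levels, ESR1 was at 0 and PGR and CDH1 were at or under 0.0853, but ERBB2 was at 25.8 and EPCAM at 4.204 mRNA RPKM. The markers of leukocytes, endothelium and muscle were at or under 0.863 mRNA RPKM.

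The actins and profilins show how much sequence the genes share. Identity was taken from global alignments that allowed gaps, while the printed stretches are set side by side without gaps. The coding sequences of ACTB (chr7:5566779-5570232 of GRCh37, minus strand, 6 exons) and ACTG1 (chr17:79476997-79479825, minus strand, 6 exons) were identical at 1029 of 1128 bases, and the encoded proteins at 371 of 375 residues. The first 30 coding bases are printed because they hold the region where the proteins differ most, and capitals mark the bases that differ within a pair.
ACTB: atggaTgaTgaTatcgccgcgctCgtcGtC
ACTG1: atggaAgaAgaGatcgccgcgctGgtcAtT
Coding bases 673 to 702 are the ACTB stretch, among those not found elsewhere in the genome, that differed most from ACTG1.
ACTB: caAgagatggccacGgcTgcTtccAGctcC
ACTG1: caGgagatggccacCgcCgcAtccTCctcT
The profilins were less alike, with 60.3% of coding bases and 61.4% of residues identical. PFN1 (chr17:4848947-4851825, minus strand, 3 exons) and PFN2 (chr3:149682691-149688682, minus strand, 3 exons) each encode 140 residues, and their first 30 coding bases are printed because the profilins differed in their footprints with Silvestrol.
PFN1: atggccggGtggAaCGCctacAtCgaCaac
PFN2: atggccggTtggCaGAGctacGtGgaTaac

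The share of each coding sequence that could be counted differed widely between the 9 genes. Every 30-base window of each coding sequence was searched on both strands of the GRCh37 genome, not in spliced transcripts, with up to 2 mismatches. In ACTB, 41 of 1099 windows (3.73%) had no match outside the gene, in ACTG1 83 (7.55%), in PFN1 68 of 394 (17.3%) and in CFL1 88 of 472 (18.6%). Matches fell at 59 other loci for ACTB, 60 for ACTG1, 13 for PFN1 and 10 for CFL1. PFN2 had no window with a match elsewhere, and IQGAP1, TES and FLNA had 4932 of 4945, 1235 of 1237 and 7522 of 7915 windows without one. MYLK stood between them with 76.4%, and its matches fell at 73 other loci.

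The deposited values carried the same limit for ACTB, ACTG1 and PFN1, but not for MYLK. Dividing the reads of a gene by its RPKM gives the length over which reads were counted. For ACTB this counted length was 34.5 to 44.6 nt in the 5 RF libraries of passage 3, and 78.0 and 94.1 nt in DMSO and Silvestrol of passage 4, of a coding sequence of 1128 nt. For ACTG1 it was 56.8 to 69.0 nt in passage 3 and 120 and 117 nt in passage 4. For PFN1 it was 60.4 to 74.0 nt in passage 3 and 81.0 and 102 nt in passage 4, of 423 nt. The counted length of PFN2, IQGAP1, MYLK, TES and FLNA was at least 92.7% of the coding sequence in every RF library. The RPKM values of ACTB, ACTG1 and PFN1 therefore rest on a short stretch of the mRNA, one that differed in length between passages and treatments. For PFN1 it was 60.4 nt in DMSO and 70.0 nt in Silvestrol at 1 h, and 64.2 and 74.0 nt at 2 h in passage 3. In ACTB it was also longer with Silvestrol in each pair, and in ACTG1 only at 1 h. A longer counted length gives a lower RPKM for the same reads, so RPKM changes of these genes contain this difference.

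**Figure D1:**
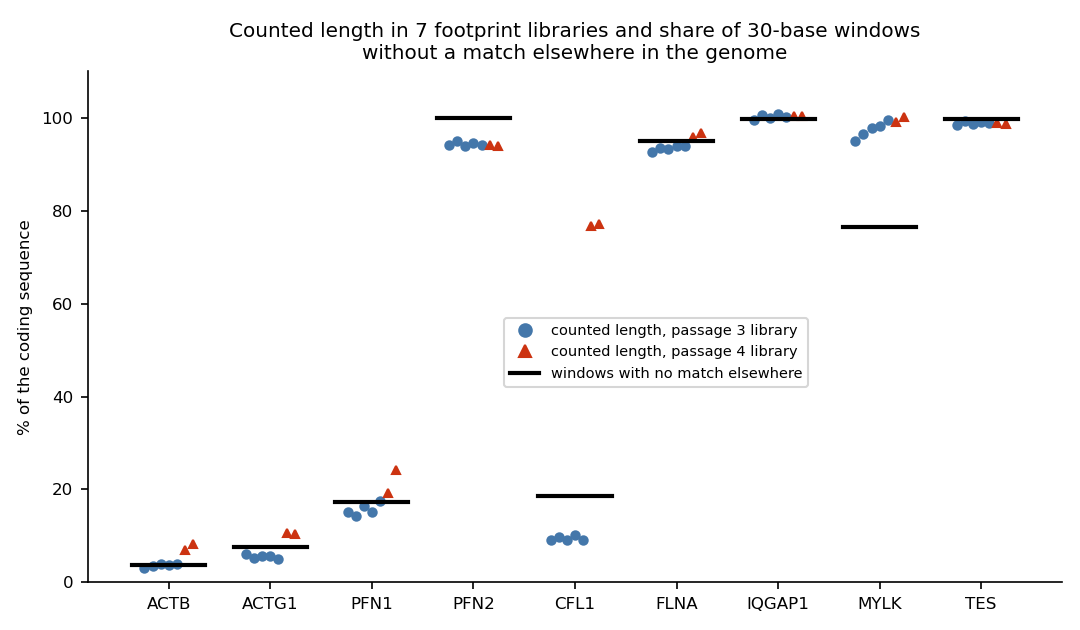
Counted length of each gene as a percentage of its coding sequence (y axis) in the 5 RF libraries of passage 3 (circles) and the 2 of passage 4 (triangles), with the percentage of 30-base windows that have no match elsewhere in the genome (black lines). ACTB and ACTG1 lie near the bottom with longer counted lengths in passage 4 than in passage 3, and the CFL1 entry moves from 10.2% or less in passage 3 to 76.6% or more in passage 4.

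CFL1 (chr11:65622144-65625651, minus strand, 4 exons), which encodes the non-muscle cofilin, had its reads divided between a pair of table entries. The entry used here, NM_005507, had 4172 and 2821 reads in DMSO and Silvestrol of passage 3 but 103 and 135 reads in passage 4. The other entry, CR626689, had 984 and 869 reads in passage 3 and 3112 and 1480 reads in passage 4. Most reads thus changed entry between passages, and the counted length changed with them, from 51.0 nt to 384 nt in DMSO for the first entry and from 381 nt to 76.0 nt for the second. Values of CFL1 that span both passages are of limited use for this reason, and the 2 entries are given side by side or summed below.

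Levels were compared per length. In DMSO RFs at 2 h of passage 3, PFN1 was highest with 4238 RPKM, followed by CFL1 with 2367, ACTG1 with 2084, ACTB with 1285, FLNA with 463, TES with 72.7, PFN2 with 60.2, IQGAP1 with 28.1 and MYLK with 4.14. The median of all genes was 20.8 RPKM. In passage 4 the DMSO values were 4196 for PFN1, 3436 for ACTB, 1430 for ACTG1, 362 for FLNA, 80.8 for TES, 52.2 for PFN2, 40.7 for IQGAP1 and 5.13 for MYLK. The order of the 6 genes other than the actins and CFL1 was the same in both DMSO libraries, and the pair of values of each did not overlap that of its neighbours, whereas ACTB and ACTG1 changed places. In DMSO RFs of the INK128 experiment PFN2 lay below IQGAP1, with 6.20 and 15.4 FPKM (the analogous fragment-based unit), and within the Silvestrol experiment IQGAP1 lay above PFN2 in untreated cells and with Silvestrol at 1 h, and PFN2 above TES with Silvestrol at 2 h in passage 3. The ratio of ACTG1 to ACTB in RPKM was 1.62 in DMSO of passage 3 and 0.416 in DMSO of passage 4, and in FPKM it was 0.486 in DMSO RFs of the INK128 experiment. The order of the actins was therefore not settled by these data.

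**Figure D2:**
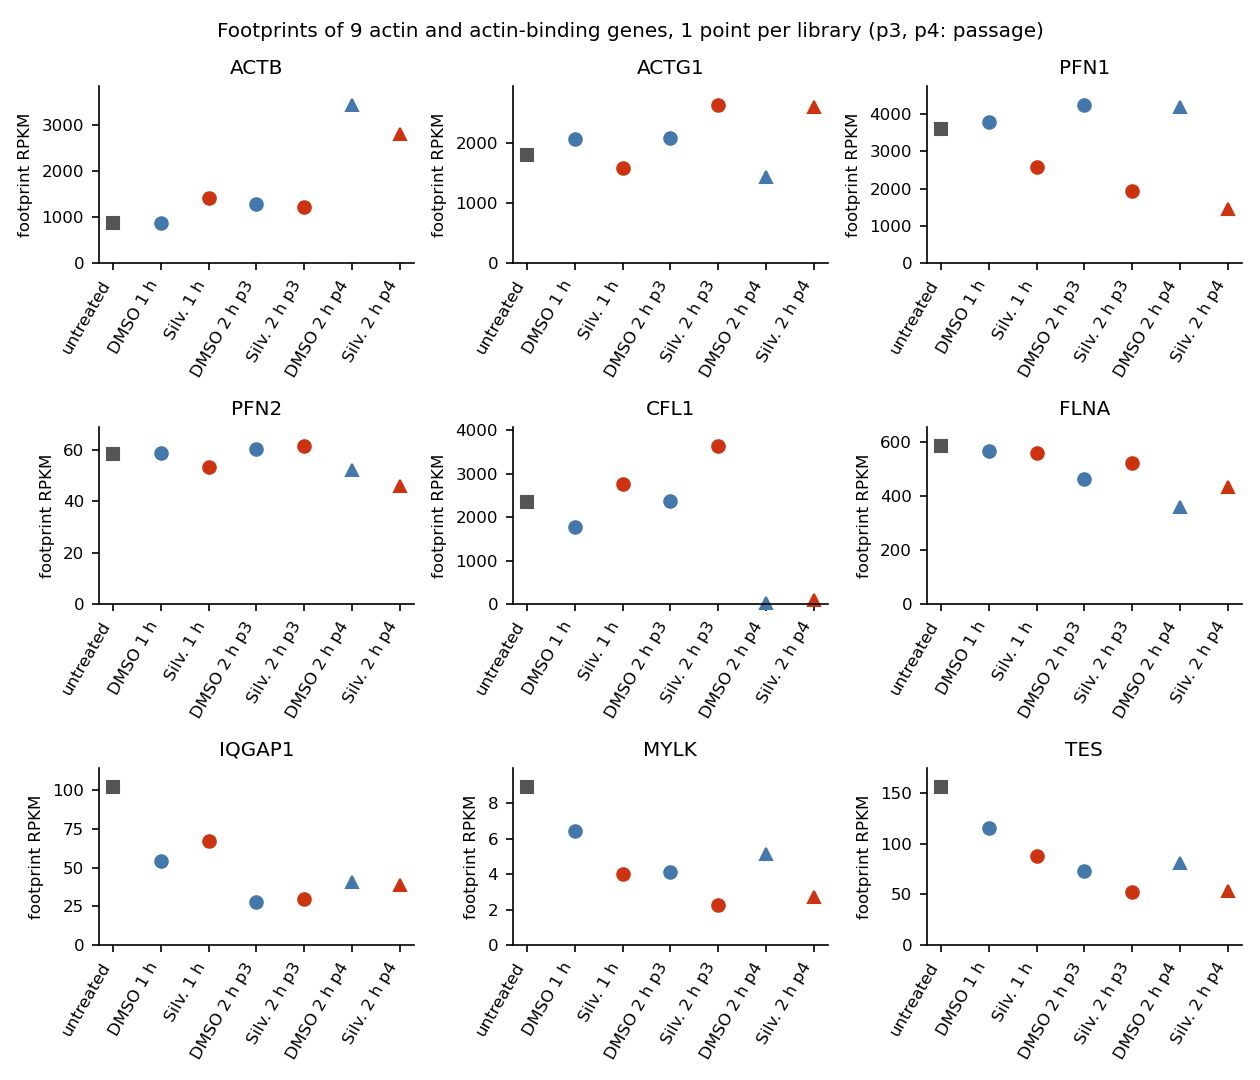
RF level in RPKM (y axis, from 0, a separate scale for each gene) of the 9 genes in the 7 RF libraries, with untreated cells as squares, passage 3 as circles and passage 4 as triangles, DMSO in blue and Silvestrol in red. PFN1 is lower with Silvestrol than with DMSO in all 3 pairs, IQGAP1, MYLK and TES are highest in untreated cells, and ACTB and CFL1 differ more between passages than between treatments at 2 h.

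PFN1, which supplies actin monomers to growing filaments, had fewer footprints with Silvestrol. RFs were 3604 RPKM in untreated cells, 3773 in DMSO and 2569 in Silvestrol at 1 h, 4238 and 1927 at 2 h in passage 3, and 4196 and 1455 at 2 h in passage 4. All 3 Silvestrol values lay below all 4 values of untreated and DMSO cells. The log2 change was -0.55 at 1 h, -1.14 and -1.53 at 2 h in passages 3 and 4. Reads scaled to the library total, without division by length, gave a smaller change, with log2 ratios of -0.21 at 1 h and -0.83 and -1.15 at 2 h. An edgeR model of the read counts over both passages gave -0.94 with an SE of 0.14, and -1.18 with the counted length as an offset. With passage as a block, which compares treatments within each passage, the model gave -0.92 with an SE of 0.10. PFN1 mRNA was 1823 RPKM in DMSO and 1322 in Silvestrol, a log2 ratio of -0.46. TE, the ratio of RF to mRNA RPKM, was 2.32 in DMSO and 1.46 in Silvestrol of passage 3. This is a z-score of -0.36 among all genes, inside the thresholds of -1.5 and 1.5.

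PFN2, the profilin enriched in neurons but also made in other tissues, did not show the fall of PFN1. Its RFs were 58.3 RPKM in untreated cells, 58.7 and 53.2 in DMSO and Silvestrol at 1 h, 60.2 and 61.4 at 2 h in passage 3, and 52.2 and 45.9 in passage 4. The treated and control values overlapped. By edgeR the log2 change was 0.08 with an SE of 0.24, or of 0.16 with passage as a block, and mRNA was 15.1 and 14.6 RPKM. The ratio of PFN1 to PFN2 in RF RPKM was 70.4 and 80.4 in the DMSO libraries at 2 h and 31.4 and 31.7 in the Silvestrol libraries. In mRNA the ratio was 121 in DMSO and 90.7 in Silvestrol. The passage 4 values of PFN2 rest on 172 and 64 reads.

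The actins differed from PFN1 in that their Silvestrol values did not all lie below their untreated and DMSO values. ACTB RFs were 863 RPKM in untreated cells, 867 in DMSO and 1424 in Silvestrol at 1 h, 1285 and 1217 at 2 h in passage 3, and 3436 and 2803 in passage 4. The passages differed more than the treatments, and the edgeR log2 change at 2 h was 0.09 with an SE of 0.94. With passage as a block this change was 0.12 with an SE of 0.10. Its sign depended on the scale, since the log2 ratios of RPKM were -0.08 and -0.29 in passages 3 and 4 and those of reads scaled to library totals were 0.12 and 0.02. ACTB mRNA was 1729 RPKM in DMSO and 1407 in Silvestrol.

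ACTG1 RFs were 1803 RPKM in untreated cells, 2064 and 1586 in DMSO and Silvestrol at 1 h, 2084 and 2625 at 2 h in passage 3, and 1430 and 2598 in passage 4. Both Silvestrol values at 2 h were above every other RF value of the gene, and the Silvestrol value at 1 h was above the DMSO value of passage 4 alone. The edgeR log2 change at 2 h was 0.68 with an SE of 0.32, and with passage as a block 0.61 with an SE of 0.10. ACTG1 mRNA was 2231 RPKM in DMSO and 1499 in Silvestrol, a log2 ratio of -0.57, so that RF and mRNA values moved in opposite directions at 2 h.

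CFL1 values depended on the table entry. The entry used gave RFs of 2346 RPKM in untreated cells, 1763 and 2757 in DMSO and Silvestrol at 1 h, 2367 and 3634 at 2 h in passage 3, and 32.4 and 99.7 in passage 4. The other entry gave 24.6, 50.3 and 150, 74.6 and 138, and 4949 and 5568 RPKM in the same order. In every one of the 3 pairs and in both entries the Silvestrol value was above the DMSO value. With both entries summed, the log2 ratios of reads scaled to library totals were 0.91 at 1 h and 0.64 and 0.29 at 2 h in passages 3 and 4. The mRNA values of the entries moved apart, from 328 to 175 RPKM in the first and from 200 to 286 RPKM in the second, while the reads of each were nearly equal, 12903 and 12897 in DMSO and 5888 and 5950 in Silvestrol. The log2 mRNA ratio of the entry used was -0.91 in RPKM and -0.11 in scaled reads. Its TE z-score of 1.82, past the upper threshold, contains the RPKM ratio.

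FLNA (chrX:153576899-153603002, minus strand, 48 exons) encodes filamin A, the main filamin of non-muscle cells, and had the most reads of the 9 genes, 11709 to 171996 in the RF libraries. RFs were 587 RPKM in untreated cells, 567 and 561 in DMSO and Silvestrol at 1 h, 463 and 524 at 2 h in passage 3, and 362 and 435 in passage 4. The Silvestrol value was the higher at 2 h in both passages, and the groups overlapped. Over both passages the edgeR log2 change was 0.35 with an SE of 0.18, and with passage as a block 0.36 with an SE of 0.07. FLNA mRNA was 407 RPKM in DMSO and 295 in Silvestrol, a log2 ratio of -0.47.

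FLNC, the filamin best known from muscle, fell with Silvestrol and had RFs of 91.3 RPKM in untreated cells, 88.0 and 38.3 in DMSO and Silvestrol at 1 h, 83.9 and 9.97 at 2 h in passage 3, and 52.5 and 8.22 in passage 4. That is an 8.42-fold and a 6.38-fold fall at 2 h, and the edgeR log2 change was -2.73 with an SE of 0.28 and an adjusted p of 0.0191. FLNC mRNA was 45.7 RPKM in DMSO and 36.2 in Silvestrol, and its TE z-score was -2.42. The ratio of FLNA to FLNC in RF RPKM was 5.52 and 6.91 in the DMSO libraries at 2 h and 52.6 and 52.9 in the Silvestrol libraries. The difference in change between FLNA and FLNC was not tested.

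**Figure D3:**
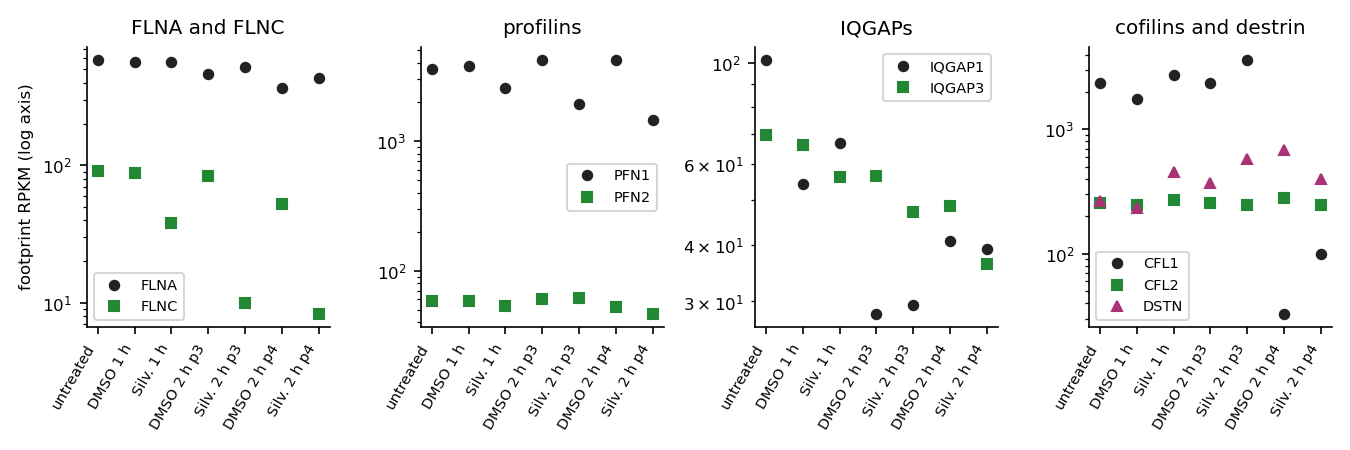
RF level in RPKM (log axis) in the 7 RF libraries for FLNA and FLNC, profilins, IQGAPs and cofilins with destrin, 1 point per library. FLNC falls to 9.97 and 8.22 RPKM with Silvestrol at 2 h while FLNA is at 362 RPKM or more, and PFN1 falls while PFN2 stays between 45.9 and 61.4 RPKM.

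IQGAP1 (chr15:90931474-91045471, plus strand, 38 exons) had the largest ratio of untreated cells to DMSO cells at 2 h of passage 3 among the 9 genes. RFs were 102 RPKM in untreated cells, 54.3 and 66.9 in DMSO and Silvestrol at 1 h, 28.1 and 29.5 at 2 h in passage 3, and 40.7 and 39.1 in passage 4. In untreated cells the level was 3.62-fold the DMSO value at 2 h of passage 3, while DMSO and Silvestrol at 2 h differed by less than the passages did. The edgeR log2 change with Silvestrol was 0.12 with an SE of 0.21, and with passage as a block 0.14 with an SE of 0.10. IQGAP1 mRNA was 53.5 and 58.2 RPKM in DMSO and Silvestrol. IQGAP3, another member of the family, had RFs of 69.6 RPKM in untreated cells and 66.1, 56.5 and 48.6 in DMSO cells at 1 h and at 2 h in passages 3 and 4. IQGAP2 did not pass the minimum and had 107 reads in all RF libraries together.

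MYLK (chr3:123328896-123603179, minus strand, 34 exons) had the lowest RFs per length of the 9 genes in every RF library. In total RNA of the INK128 experiment PFN2 was lower, with 0.382 against 0.656 FPKM in DMSO and 0.130 against 0.262 in INK128. RFs of MYLK were 8.92 RPKM in untreated cells, 6.43 and 4.03 in DMSO and Silvestrol at 1 h, 4.14 and 2.24 at 2 h in passage 3, and 5.13 and 2.73 in passage 4. The Silvestrol value was below the DMSO value in all 3 pairs, and the Silvestrol values at 2 h were below every DMSO value. The edgeR log2 change was -0.76 with an SE of 0.21, and with passage as a block -0.74 with an SE of 0.17. MYLK mRNA was 14.2 RPKM in DMSO and 10.3 in Silvestrol, so part of the RF difference was matched in mRNA, and the TE z-score was -0.12. The passage 4 values rest on 242 and 55 reads. MYLK2 and MYLK3, the kinases of skeletal and heart muscle, did not pass the minimum.

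TES (chr7:115850593-115898837, plus strand, 7 exons) combined both patterns. RFs were 156 RPKM in untreated cells, 115 and 88.2 in DMSO and Silvestrol at 1 h, 72.7 and 52.8 at 2 h in passage 3, and 80.8 and 53.9 in passage 4. The Silvestrol value was below the DMSO value in all 3 pairs, by log2 ratios of -0.38, -0.46 and -0.58. In edgeR the log2 change at 2 h was -0.40 with an SE of 0.13, and with passage as a block -0.39 with an SE of 0.12. In contrast, mRNA was 38.5 RPKM in DMSO and 42.1 in Silvestrol. TE was 1.89 in DMSO and 1.25 in Silvestrol, a z-score of -0.28.

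On the TE scale of passage 3, CFL1 lay past a z-score of 1.5, where 4.36% of all genes did, and none of the 9 genes lay under -1.5, where 6.29% did. With the RFs of passage 4 over the same mRNA, ACTG1 also lay past it, at 1.81 against 1.21 with those of passage 3, where 4.74% of all genes did with the RFs of passage 4. None of the 9 lay under -1.5 there, where 6.72% of all genes did.

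**Figure D4:**
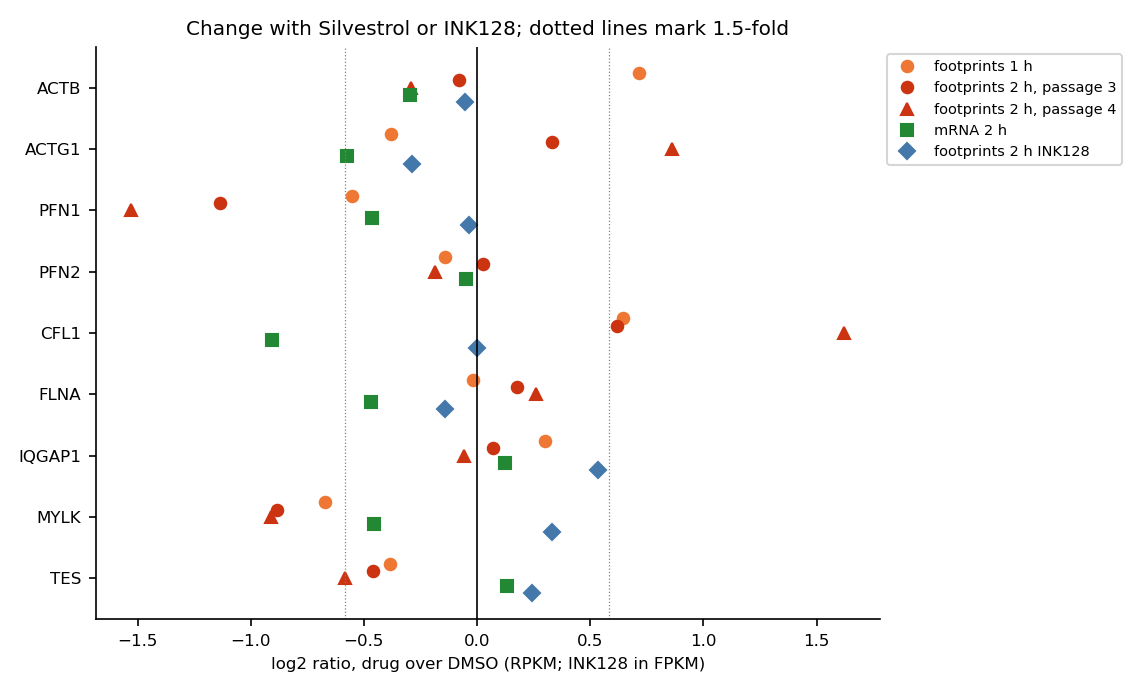
The log2 ratio of drug over DMSO (x axis) for each of the 9 genes, for RFs at 1 h and at 2 h of each passage and mRNA with Silvestrol (RPKM), and for RFs with INK128 (FPKM), 1 point per comparison. The points of PFN1, MYLK and TES for Silvestrol RFs all lie below 0, those of CFL1 lie above 0, and no INK128 point lies past 1.5-fold.

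At 1 h, where there was 1 library per treatment and no replicate check, RPKM of ACTB and CFL1 were past 1.5-fold higher, where 1.64% of all genes were, and MYLK was past 1.5-fold lower, where 21.9% were. With reads scaled to library totals the log2 ratio of MYLK was -0.52, inside 1.5-fold. The median log2 ratio of all genes at 1 h was -0.19 in RPKM. For mRNA at 2 h, also without a replicate, CFL1 alone of the 9 genes was past 1.5-fold lower, where 12.0% of all genes were, and only on the RPKM scale. None was past 1.5-fold higher, where 18.3% were. Of the 9 log2 mRNA ratios, 7 were below 0 in RPKM and 2, those of IQGAP1 and TES, were above 0.

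Untreated cells stood apart from DMSO cells in IQGAP1, MYLK and TES. The untreated RF value was 3.62-fold, 2.16-fold and 2.14-fold the DMSO value at 2 h of passage 3, a difference past 1.5-fold that 1.86% of all genes showed in this direction. In each of them the DMSO value at 1 h lay between the untreated value and that at 2 h, and 1.33% of all genes had this order together with the 1.5-fold difference. Between DMSO at 2 h of passage 3 and DMSO at 1 h, the same 3 genes were past 1.5-fold lower at 2 h, where 1.93% of all genes were, and none was past 1.5-fold higher, where 1.01% were. The DMSO values of passage 4, 40.7, 5.13 and 80.8 RPKM, were also below the DMSO values at 1 h. Against DMSO at 1 h, IQGAP1 remained past 1.5-fold higher, where 0.913% of all genes did, none was past 1.5-fold lower, where 2.25% were, and the log2 ratios of MYLK and TES were 0.47 and 0.44. None of the 9 genes was past 1.5-fold lower in untreated cells, where 1.96% were. Fresh medium, the vehicle and the time since the change cannot be told apart here, and there was 1 untreated library.

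The genes whose RF pattern over the 7 RF libraries was most like that of a member were taken by Pearson's r of log2 RPKM among 10,426 genes, and no gene was named for more than 1 member. For IQGAP1 they were EEA1 (r = 0.979), CEP350 (0.976) and EYA3 (0.970). For MYLK they were PKN2 (0.988), ZNF569 (0.987) and THNSL1 (0.986), and for TES PCF11 (0.993), GSPT1 (0.983) and LMO7 (0.978). For PFN1 they were CCDC109B (0.998), SFXN1 (0.995) and NSMCE2 (0.994), and for FLNA ARHGEF2 (0.986), CAD (0.976) and LMNB2 (0.972). For ACTB they were SFT2D1, NACA and LOC440957 (0.989 to 0.977), for ACTG1 FTL, KIAA0141 and TFAP2C (0.983 to 0.970), for CFL1 Cort, SKA2 and CDC37 (0.997 to 0.987), and for PFN2 CDK5R2, FAM45A and TMEM121 (0.997 to 0.990). Some of these have very few reads, down to 1 in a library for CDK5R2 and TMEM121. Between members, r was 0.966 for MYLK and TES, 0.848 for IQGAP1 and TES, 0.744 for IQGAP1 and MYLK and -0.908 for ACTB and FLNA. Values of r with CFL1, such as -0.904 for ACTB and 0.871 for FLNA, span the change of table entry between passages and are of limited use. Those with ACTB, ACTG1 and PFN1, among them the -0.908 above, span a change of counted length between passages and are limited too. The points share libraries and passages, and with 7 of them such values are descriptions only.

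With INK128, RFs of the 8 genes that passed the minimum changed little, and there was 1 library per group. RF values in DMSO and INK128 were 5210 and 5018 FPKM for ACTB, 2532 and 2077 for ACTG1, 1034 and 1008 for PFN1, 1419 and 1420 for CFL1, and 219 and 198 for FLNA. They were 15.4 and 22.4 FPKM for IQGAP1, 3.75 and 4.72 for MYLK and 25.4 and 30.04 for TES. No member was past 1.5-fold in either direction, where 3.48% of all genes were lower and 3.96% higher. IQGAP1 came nearest, with a log2 ratio of 0.54. PFN1, which had fewer footprints in every Silvestrol pair, had a log2 ratio of -0.04. PFN2, below the minimum, had 6.20 and 5.46 FPKM.

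Total RNA FPKM was lower with INK128 for all 8 genes, by log2 ratios of -1.33 for MYLK to -1.10 for FLNA, and 92.0% of all genes were past 1.5-fold lower, with a median of -1.17, while 0.268% were past 1.5-fold higher. The median of all genes lay inside the range of the 8 genes. TE z-scores with INK128 ranged from -0.33 for ACTG1 to 1.14 for IQGAP1. None passed 1.5 in either direction, where 5.58% of genes were lower and 1.75% higher. This depended on the scale, since IQGAP1 passed it with a pseudocount of 0.5 FPKM (1.82), where 2.51% of all genes were higher and 4.39% lower, and with a z-score from median and MAD (1.77), where MYLK also passed (1.62) and 6.86% were higher. The doses and tables of the drugs differ, so their values are given side by side and were not compared.

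In the wider set of 160 listed actin genes other than the 9, 133 were tested in the Silvestrol table. The lists cover actins, monomer binding and turnover, nucleation, crosslinkers, actomyosin, and scaffolds with focal adhesions. In the edgeR test at 2 h, 18 (13.5%) had lower RFs and 2 had higher RFs, beside 7.58% and 2.16% of all genes. The median log2 change was -0.20, against -0.01 for all genes. With either Silvestrol library left out, no gene of the table was called. Passages 3 and 4 were cultures shared by DMSO and Silvestrol, and with the replicate block 51 listed genes (38.3%) were lower and 26 (19.5%) higher, beside 28.1% and 25.0% of all genes. The counts by list below are from the test without the block, and those with the block follow at the end of each list.

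The edgeR test of TE called 0 of 10,526 genes, with 2571 at an unadjusted p under 0.05. DESeq2, run on the same 10,526 genes, called 538 lower and 376 higher, with 11 and 9 of the 133 listed genes among them. By z-score, 7 listed genes were lower and 7 higher (5.26% each), beside 6.29% and 4.36% of all genes. With the replicate block, 39 listed genes (29.3%) were lower in TE and 34 (25.6%) higher, beside 22.8% and 23.1% of all genes.

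**Figure D5:**
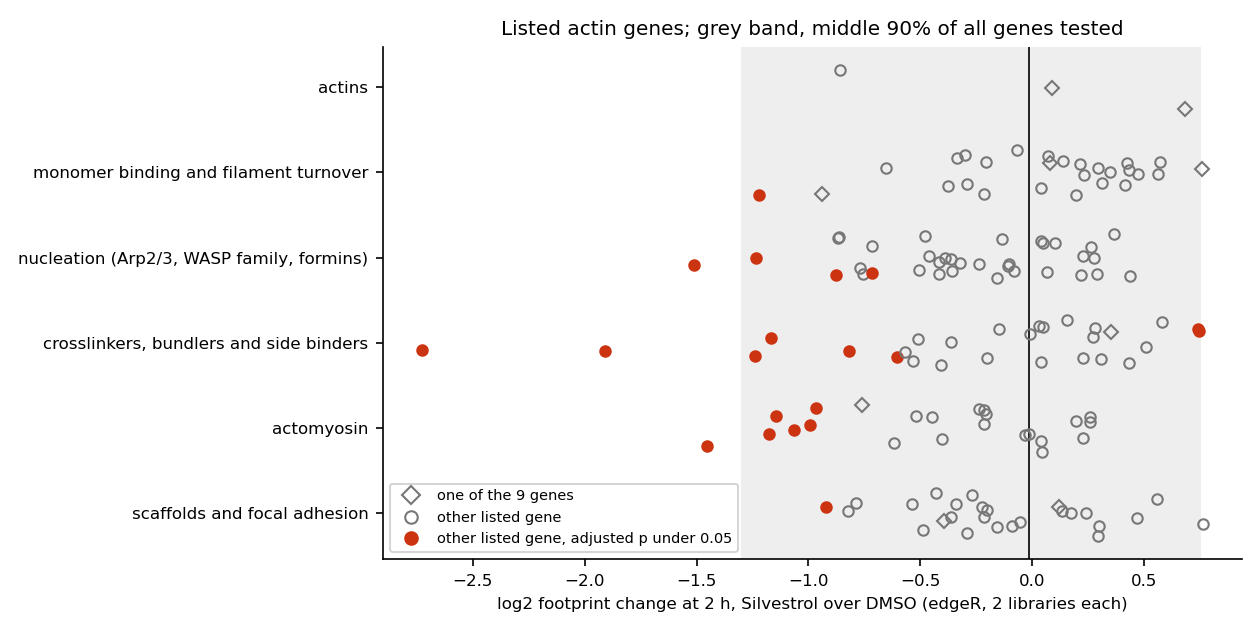
The edgeR log2 change in RFs at 2 h (x axis) of the listed actin genes by list, with diamonds for the 9 genes and circles for the others, the circles filled red where the adjusted p was under 0.05. The black line is the median of all genes and the grey band holds the middle 90% of them, and most red points lie to the left of the line.

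The actomyosin list holds myosins and the kinases and phosphatase that regulate them. In it 6 of 22 genes were lower (27.3%) and 0 higher, beside 7.58% and 2.16% of all genes. ROCK1, a kinase that promotes contraction, fell from 22.6 to 7.28 RPKM in passage 3 and from 24.8 to 8.15 in passage 4, with a log2 change of -1.45, an SE of 0.15 and an adjusted p of 0.0191. PPP1CB, the catalytic subunit of myosin phosphatase, fell from 357 to 161 and from 412 to 186 RPKM, with a log2 change of -0.99, an SE of 0.13 and an adjusted p of 0.0238. Its mRNA was higher with Silvestrol, 49.2 against 27.1 RPKM. The others were ROCK2, MYO1E, MYO9A and MYO10. With the block, 11 genes of the list were lower (50%) and 3 higher (13.6%), beside 28.1% and 25.0% of all genes.

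Crosslinkers, bundlers and side binders had 6 of 27 genes lower (22.2%) and 2 higher (7.41%), beside 7.58% and 2.16% of all genes. Beside FLNC, the lower genes were ACTN1, MACF1, PALLD, CNN3 and ANLN. Anillin, encoded by ANLN and required for cytokinesis, fell from 284 to 110 and from 270 to 115 RPKM, with a log2 change of -1.17, an SE of 0.11 and an adjusted p of 0.0191. Among the higher genes was CNN2, a calponin, which rose from 267 to 458 and from 176 to 255 RPKM, with a log2 change of 0.74, an SE of 0.12 and an adjusted p of 0.0341. With the block, 11 genes of this list were lower (40.7%) and 8 higher (29.6%), beside 28.1% and 25.0% of all genes.

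Nucleation genes had 4 of 35 lower (11.4%) and 0 higher, beside 7.58% and 2.16% of all genes, with a median log2 change of -0.32. NCKAP1, a subunit of the WAVE complex that activates Arp2/3, fell from 105 to 38.1 RPKM and from 122 to 46.9 RPKM, with a log2 change of -1.23, an SE of 0.15 and an adjusted p of 0.0213. ENAH, which protects growing filament ends from capping, fell from 22.2 to 5.73 and from 16.1 to 5.73 RPKM, with a log2 change of -1.51, an SE of 0.22 and an adjusted p of 0.0268. CTTN and FMNL3 were also lower. With the block, 16 nucleation genes were lower (45.7%) and 3 higher (8.57%), beside 28.1% and 25.0% of all genes.

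Of 24 genes for monomer binding and filament turnover, TMOD3, which caps pointed ends, was the 1 lower gene, with 229 and 84.9 RPKM in DMSO and Silvestrol of passage 3, 218 and 90.2 in passage 4, and a log2 change of -1.22, an SE of 0.13 and an adjusted p of 0.0191. That 1 gene is 4.17% of the list, beside 7.58% of all genes. No gene of that list was higher without the block, where 2.16% of all genes were, and its median log2 change was 0.17. With the block 4 were lower (16.7%) and 7 higher (29.2%), beside 28.1% and 25.0% of all genes. DSTN, a relative of cofilin and 1 of the 7, had 369 and 578 RPKM in DMSO and Silvestrol of passage 3 but 678 and 400.1 in passage 4. CFL2, the muscle cofilin, had 254 and 246 RPKM at 2 h in passage 3 and 282 and 247 in passage 4, with a log2 change of 0.04 and an SE of 0.13. Of 24 scaffold and focal adhesion genes, TLN1, which couples integrins to actin, was the 1 lower gene, with 184 and 85.6 RPKM in passage 3, 183 and 91.3 in passage 4, and a log2 change of -0.92, an SE of 0.10 and an adjusted p of 0.0193. TLN1 alone is 4.17% of its list. With the block, 8 scaffold and focal adhesion genes were lower (33.3%) and 5 higher (20.8%), beside 28.1% and 25.0% of all genes. Of the other actins, ACTA2 alone passed the minimum, with 519 reads over all RF libraries, and was called lower only with the block, and the muscle actins ACTA1, ACTC1 and ACTG2 had 1, 6 and 44 reads. Reads of these actins that match ACTB, ACTG1 or each other could not have been counted as unique.

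With INK128, 116 of the listed genes passed the minimum. None was past 1.5-fold in RFs, and TPM4, a tropomyosin, was the 1 gene past a TE z-score of 1.5 in either direction, at -1.89, beside 5.58% of all genes lower and 1.75% higher. It no longer passed with a pseudocount of 0.5 FPKM (-1.25), where 4.39% of all genes were lower, or a minimum of 5 FPKM (-0.48), where 4.86% were lower and 1.32% higher. With median and MAD TPM4 did pass, at -3.52, and 3 listed genes were lower and 6 higher, beside 12.3% and 6.86% of all genes. RFs of TPM4 were 241 and 232 FPKM in DMSO and INK128 and its total RNA 37.2 and 32.1 FPKM.

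The 5′ UTRs of the 9 genes, from the MANE Select transcripts, ranged from 39 nt in PFN2 to 312 nt in MYLK in these transcripts, against a median of 134 nt over 9027 genes with an annotated 5′ UTR. The 5′ UTR of PFN1 was 136 nt with 78.7% GC and a minimum free energy of -51.1 kcal/mol, and that of PFN2 was 39 nt with 71.8% GC and -13.4 kcal/mol. Other annotated PFN2 transcripts have other 5′ UTRs, and the study used a different one in its reporter, so the place of PFN2 in this range holds for the MANE Select transcript alone. ACTB and ACTG1 had 84 and 72 nt with -13.1 and -10.9 kcal/mol, CFL1 had 81 nt with -26.0, and IQGAP1 had 100 nt with -35.9. FLNA, with 245 nt and -111.9 kcal/mol, and MYLK, with 312 nt and -142.6 kcal/mol, were the longest, and TES had 169 nt and -78.7 kcal/mol. Whether these properties bear on the footprint changes of the 9 genes was not tested.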

How the data were processed

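The data are 2 tables of RF and RNA values from MDA-MB-231 cells. For the Silvestrol experiment the authors aligned reads with Bowtie (up to 2 mismatches and 16 alignments) to hg19 and KnownGene transcripts and deposited, for each transcript, counts of reads that mapped once. The authors also deposited RPKM, which leaves out positions with non-unique reads. For INK128 the authors deposited FPKM without read counts. The program that made the FPKM is not given in the sources used here. The submitters' processing notes name CASAVA 1.8.1. Deposited columns of TE, its change and a score were not used. Every column with values of a sample was assigned to it.

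Each symbol was represented by its entry of highest average RF RPKM over the 7 RF libraries. Genes needed RPKM above 0 in the passage 3 libraries at 2 h, a mean of at least 1 in RFs and 0.3 in RNA, and likewise for FPKM. RF counts (2 DMSO and 2 Silvestrol libraries) and TE (the interaction of assay and treatment over these and 2 mRNA libraries) went into quasi-likelihood tests of edgeR 4.0.16 (R 4.3.3, TMM, Benjamini-Hochberg over 10,526 genes, threshold 0.05), with DESeq2 1.42.0 as an alternative. Simulated counts had a dispersion of 0.05 for every gene and no passage effect, and the changed genes had at least 200 RF reads. On these the RF test recovered 196 of 200 genes changed by 2 on the log2 scale, with 7 false calls. The TE test recovered 73, with 2. The measured libraries differ by passage, so these numbers are not the power of the tests on them. Unreplicated ratios were read at 1.5-fold and z-scores of log2 TE ratios, without a pseudocount, at 1.5. Counted length is reads over RPKM and the library total implied by most genes. Windows of 30 bases were matched to GRCh37 (the hg19 build), and coordinates are those of MANE Select transcripts in GENCODE version 44 lifted to GRCh37. Folding used RNAfold 2.7.2.

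Replicates 1 and 2 are passages 3 and 4, which the labels give as shared by DMSO and Silvestrol. Deviations from the group means correlated between treatments with r = 0.756, so same-numbered samples are pairs. P-values measure the spread between 2 cultures. The members and lists were chosen with earlier results of these data known. Named genes were the 9 members, the 2 other listed genes of lowest p per list and direction, the extreme INK128 z-score per list past 1.5, family members, and the 3 genes most correlated with each member. One listed gene is not reported here. The rest were picked once their values were seen. Alternatives covered scaling, filters, the block, the counted length, pseudocounts and left-out libraries.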

Additional observations from a re-analysis of the deposited data

Results flagged for a closer look

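For 3 of the 9 genes the RPKM ratio of Silvestrol over DMSO had one sign at 1 h and the opposite sign in both passages at 2 h. The log2 ratio of ACTB was 0.72 at 1 h and -0.08 and -0.29 at 2 h in passages 3 and 4. In reads scaled to library totals it was 1.05 at 1 h and 0.12 and 0.02 at 2 h, so the change of sign for ACTB was seen only in RPKM. The log2 ratio of ACTG1 was -0.38 at 1 h and 0.33 and 0.86 at 2 h, and in scaled reads -0.09, 0.26 and 0.88. The log2 ratio of FLNA was -0.02 at 1 h and 0.18 and 0.26 at 2 h, and in scaled reads 0.12, 0.28 and 0.32, without a change of sign. The difference between the times was not tested, since the 1 h treatments have 1 library each.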

How the results depend on the processing

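A fit without 1 of the RF libraries at 2 h leaves 1 in its group, and the RF spread then comes from the other group alone. The counts of such fits therefore cannot tell which libraries the results depend on. Leaving out 1 library at a time gave 0 to 854 genes with lower and 0 to 243 with higher RFs (listed genes, 0 to 20 and 0 to 4), and 0 to 583 lower and 0 to 317 higher in TE (listed genes, 0 to 8 and 0 to 2). The counts of 0 in RFs over all genes came without the Silvestrol library of passage 3 or that of passage 4. TE counts over all genes stayed at 0 without either of these, and were 583 lower and 317 higher without DMSO of passage 3 and 178 and 27 without DMSO of passage 4. Over the same fits the log2 RF change ran from -1.06 to -0.80 for PFN1, -0.90 to -0.63 for MYLK, -0.45 to -0.35 for TES, 0.16 to 0.56 for FLNA and 0.14 to 1.06 for ACTG1. It changed sign for ACTB (-1.39 without Silvestrol of passage 4 to 1.61 without DMSO of passage 4), CFL1 (-0.75 without Silvestrol of passage 3 to 3.26 without DMSO of passage 3), IQGAP1 (-0.10 to 0.37) and PFN2 (-0.24 to 0.29). With the replicate block, RFs gave 2963 lower and 2630 higher genes (listed, 51 and 26) against 798 and 227 without it (listed, 18 and 2), and TE gave 2403 and 2432 (listed, 39 and 34). The block together with the counted length, chosen after seeing the data, gave 2965 and 2425 (listed, 55 and 19), and the counted length alone 1 listed gene higher. DESeq2 gave 589 genes with higher RFs (listed, 4), and in TE 538 lower and 376 higher (listed, 11 and 9).

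RFs of passage 4 put 3 listed genes above a Silvestrol z-score of 1.5, against 7. A minimum of 5 put 301 of 7,329 genes there, against 459 of 10,526. Reads scaled to library totals gave 21 listed genes lower at 1 h against 37, 359 genes in all higher at 1 h against 172, and 11 listed genes lower in mRNA against 20. With DMSO at 1 h as the control, 96 genes were higher in untreated cells against 196, with 2 listed genes higher against 7 and 1 lower. With INK128, a minimum of 5 kept 906 genes against 7,102. It gave 144 lower and 186 higher genes in RFs against 247 and 281, which are larger shares of the genes kept. For z-scores it gave 44 lower and 12 higher (4.86% and 1.32%) against 396 and 124 (5.58% and 1.75%), with 0 listed. Median and MAD gave 870 and 487 (listed, 3 and 6), and a pseudocount of 0.5 gave 0 and 3 listed. The causes were not tested.

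Summing both CFL1 entries, also chosen after seeing the data, gave a log2 ratio of 0.46 at 2 h. Precision is limited by 2 cultures, by 1 library in every other comparison, and by counted lengths of at most 102 nt for PFN1 and 120 nt for the actins.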
